A study of Mus musculus with 8 samples.

Results

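The S100 proteins are a family of small calcium-binding proteins, and 8 members of the family, S100a8, S100a9, S100a1, S100a4, S100a6, S100a10, S100a11 and S100a13, were followed among the 13305 genes counted in whole bone marrow (BM) of mice with acute myeloid leukemia (AML). The members were chosen by name, with earlier results of these data known. All 8 are in the deposited count table, none was lost to a filter on low counts, and the fewest reads on a member in any mouse were 402 (S100a4). The table holds 9 S100 genes in all, and the remaining one, S100a16, had few reads and is described separately. The other 10 of the 19 S100 gene names looked for, such as S100b and S100a7a, are not among the listed genes. Not every one of these names is in the mouse annotation used (GENCODE M21), for example S100a7l2.

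RNA of the BM of 8 mice was sequenced, with 1 library per mouse. All were C57BL/6N mice with the genotype Mx1-Cre; Dnmt3a+/-; Flt3ITD/ITD, and they differed in Gab2, an adaptor protein that passes signals on from receptor tyrosine kinases such as Flt3. The groups were 3 AML WT mice with 2 intact Gab2 alleles (Gab2+/+), 2 AML HET mice with 1 intact allele and 3 AML KO mice with 0. Hence Cre, the loss of 1 Dnmt3a allele and the homozygous Flt3 internal tandem duplication (ITD) were common to controls and knockouts, and no healthy BM is analysed here. The Mx1 promoter responds to interferon and is not limited to blood cells. Per the study, Cre was active without the inducer pIpC, so that Dnmt3a recombined spontaneously, and Flt3-ITD and the Gab2 knockout were constitutive and thus present in every tissue. The age of the sequenced mice was not given in the sources used here.

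S100 proteins bind calcium through paired EF hands, mostly act as dimers, and expose a surface for partner proteins when calcium is bound. S100a8 and S100a9 form calprotectin, a heterodimer that fills the cytosol of neutrophils and is also made by monocytes. It chelates zinc and manganese, and once released it acts as an alarmin on receptors such as Tlr4 and Ager (RAGE). Other members work inside the cell: S100a10 forms a tetramer with annexin A2, S100a11 binds annexin A1, S100a6 binds calcyclin-binding protein and S100a4 binds non-muscle myosin.

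The 8 genes lie on chromosome 3 in groups that are 2.82 Mb apart (mm10, the build of the files, with GENCODE M21 positions). The first holds 6 members in 184.7 kb, from 90511034 to 90695721: S100a1, S100a13, S100a4, S100a6, S100a8 and S100a9 in this order. S100a1 (minus strand) and S100a13 (plus strand) are divergent, with 42 bases between their starts. S100a8 (plus strand, 90668978 to 90670035) and S100a9 (minus strand, 90692632 to 90695721) point towards each other, with 22.6 kb between them. S100a11 (93520488 to 93526287) and S100a10 (93555080 to 93564643) make up the second group. Every member is protein coding, and their principal transcripts are 486 to 731 bases long. S100a4 overlaps the predicted gene Gm42674 on the same strand, and S100a11 has a processed pseudogene on chromosome 12, so that counts of both depend on how such reads were assigned.

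The sequences just before S100a8 and S100a9 are shown because these 2 genes had the largest differences between the groups. They come from RefSeq promoter windows (GRCm38.p6, 250 bases before to 50 bases after each start), of which only the part in front of the annotated gene is printed, 5′ to 3′ on the strand of the gene. Capitals mark matches to the motifs searched: TTNCNNAA and TTGCNNAAT (C/EBP family), GAGGAAGT and AGAGGAAGT (PU.1), TTCNNNGAA (Stat) and CACCC (Klf), on either strand. The S100a8 stretch is chr3:90668821-90668977 and the S100a9 stretch is chr3:90695722-90695971.
S100a8: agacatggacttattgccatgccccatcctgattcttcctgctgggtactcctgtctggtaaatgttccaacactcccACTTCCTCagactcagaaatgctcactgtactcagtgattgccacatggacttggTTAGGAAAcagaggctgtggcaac
S100a9: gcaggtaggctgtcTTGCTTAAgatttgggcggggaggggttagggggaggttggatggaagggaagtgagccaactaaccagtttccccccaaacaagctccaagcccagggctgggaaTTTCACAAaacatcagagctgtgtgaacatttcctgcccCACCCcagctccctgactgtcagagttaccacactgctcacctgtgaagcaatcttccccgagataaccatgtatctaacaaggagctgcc
Among the 7 members with a window in that table, the relaxed C/EBP letters TTNCNNAA were found at S100a8 (1 match) and S100a9 (2 matches), and 32.1% of 12760 windows of genes in the count table hold them. GAGGAAGT was found at S100a8 and S100a4 (3.47% of windows), and the longer AGAGGAAGT, which contains it, at S100a4 (1.27%). CACCC was found at S100a9, S100a1, S100a4 and S100a13 (63.2%). The windows of S100a1 and S100a13 share 204 bases, so their matches are not separate. TTGCNNAAT (1.68% of windows) and TTCNNNGAA (6.94%) were found at 0 of 7 members. S100a10 has no window in the table.

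The libraries ranged from 28009258 to 39266815 counted reads. Levels are given as CPM, the counts scaled to a common library size with TMM factors, and a difference was called when its adjusted p was under 0.05 in edgeR's quasi-likelihood test. Replicates are separate mice. Gab2, the targeted gene, was at 93.9, 68.5 and 61.6 CPM in the 3 AML WT mice, at 55.8 and 50.8 in the AML HET mice and at 35.0, 47.2 and 40.2 in the AML KO mice, with no overlap between AML KO and the other groups. Compared with AML WT, its log2 fold change in AML KO was −0.87 (SE 0.18, adjusted p = 0.042), and it was −0.58 (adjusted p = 0.0907) without AML WT replicate 1 and AML KO replicate 1. The knockout allele replaces only part of the exons. 2 libraries stood apart from the others. Transcripts shorter than 800 bases (747 genes, all 8 members among them) took 4.83% of the counts in AML WT replicate 1 and 10.9% in AML KO replicate 1, against 6.79% to 8.23% in the other mice. The median of these genes lay at −0.47 on the log2 scale from its mean over the 8 mice in AML WT replicate 1, at 0.49 in AML KO replicate 1 and between −0.06 and 0.08 elsewhere. Since these 2 mice are at opposite ends of the comparison of genotypes, the differences of the members are also given without them.

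All 8 members had a higher level in AML KO than in AML WT BM, and 48.1% of all genes were higher. The median log2 fold change of the members was 0.68, against −0.02 over all genes. The mean of S100a9 rose 5.08-fold, and it was the only member called, while S100a8, with a 4.56-fold higher mean, just missed the threshold. Of all genes, 2.09% were called in either direction and 1.77% as higher in AML KO, so 1 of 8 members called is to be read against these shares. At an unadjusted p under 0.05, 6 of 8 members were higher in AML KO (9.77% of all genes were). For 7 of 8 members, every AML KO mouse was above every AML WT mouse (12.3% of all genes). These counts include the short-transcript shift given above. With AML WT replicate 1 and AML KO replicate 1 both left out, 7 members still did not overlap, but so did 19.4% of all genes. That fit called 0 members and 134 of the 13305 genes.

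**Figure D1:**
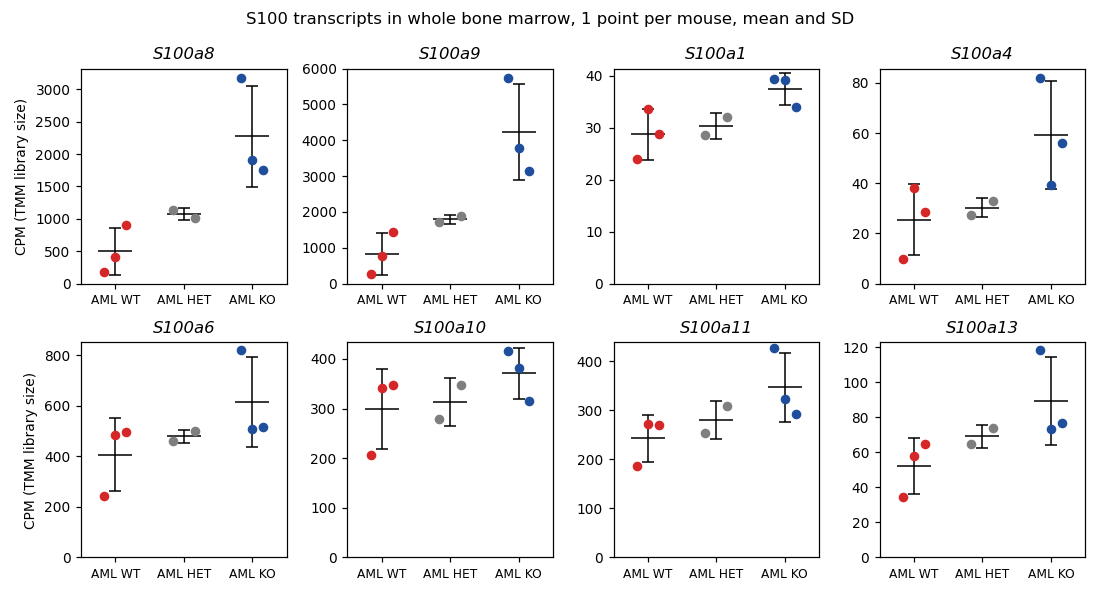
Levels of the 8 S100 genes in CPM (linear axes from 0, different scale in each panel), with 1 point per mouse, a line at the group mean and bars for the SD. S100a8 and S100a9 separate the 3 groups, and AML WT replicate 1 is the lowest and AML KO replicate 1 the highest mouse in all 8 panels.

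S100a9, the larger subunit of calprotectin, was at 270, 775 and 1447 CPM in AML WT replicates 1 to 3, at 1705 and 1878 in the AML HET mice and at 5727, 3787 and 3155 in AML KO replicates 1 to 3. The groups did not overlap, and AML HET lay between the others. The group means, from AML WT over AML HET to AML KO, were 831 ± 591 (SD, n = 3), 1792 ± 122 (n = 2) and 4223 ± 1340 CPM (n = 3). Between AML KO and AML WT, the log2 fold change of S100a9 was 2.35 (SE 0.501, adjusted p = 0.0479 by edgeR), close to the threshold. With each mouse left out in turn, the log2 fold change ranged from 1.91, when AML WT replicate 1 was omitted, to 3.01, when AML WT replicate 3 was, and it passed the threshold in 2 of 8 fits, with adjusted p from 0.0131 to 0.254 (without AML KO replicate 1). With AML WT replicate 1 and AML KO replicate 1 both left out, it was 1.64 (SE 0.286, adjusted p = 0.0619).

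S100a8, its partner in calprotectin, was at 184, 411 and 902 CPM in the AML WT mice, at 1138 and 1012 in the AML HET mice and at 3170, 1908 and 1748 in the AML KO mice. Again no group overlapped with another. The means were 499 ± 367 (SD, n = 3), 1075 ± 89.1 (SD, n = 2) and 2275 ± 779 (SD, n = 3). Compared with AML WT, the log2 fold change in AML KO was 2.19 (SE 0.488, adjusted p = 0.0568), so S100a8 did not pass the test. DESeq2 and limma-voom called it (adjusted p = 0.00905 and 0.0386). Without single mice the log2 fold change ranged from 1.78 (without AML WT replicate 1) to 2.93 (without AML WT replicate 3), and the latter was the only one of these 8 fits that called it. With AML WT replicate 1 and AML KO replicate 1 both left out, it was 1.48 (SE 0.374, adjusted p = 0.24).

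**Figure D2:**
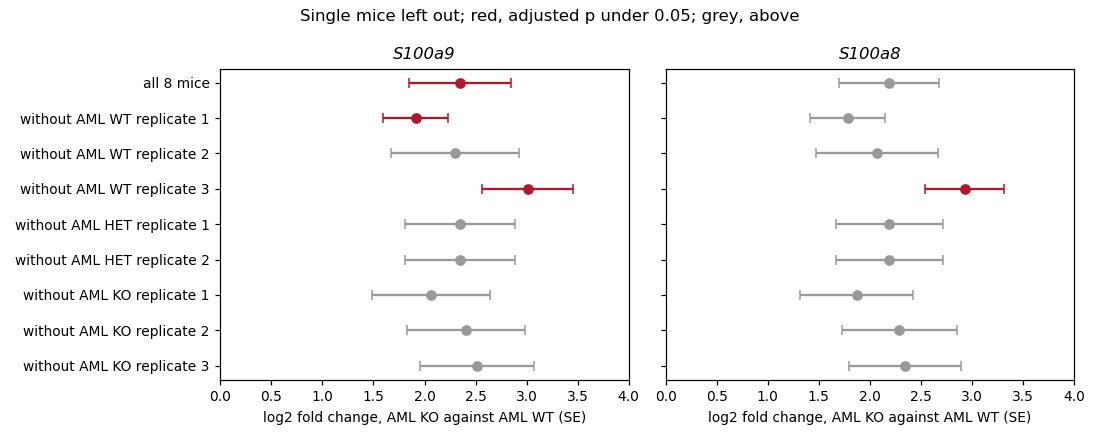
Log2 fold change in AML KO against AML WT of S100a9 (left) and S100a8 (right) (x axis, edgeR, bars for the SE) with all 8 mice and without each mouse. The change stays between 1.78 and 3.01, while the adjusted p (red, under 0.05) moves to either side of the threshold.

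Calprotectin transcripts were also the most variable of the 8 members. From the lowest to the highest of the 8 mice, S100a9 spanned 21.2-fold and S100a8 17.2-fold, against 8.31-fold for S100a4 and between 1.65-fold (S100a1) and 3.44-fold (S100a13) for the others. Within AML WT alone, S100a9 reached from 270 to 1447 CPM. Together, S100a8 and S100a9 made up 0.0471%, 0.121% and 0.235% of all counts in the AML WT mice, 0.29% and 0.289% in the AML HET mice and 0.826%, 0.558% and 0.502% in the AML KO mice. Of the counts on the 8 members, the pair took 39.3% to 65.6% in AML WT, 69.1% to 71.8% in AML HET and 79.2% to 82.4% in AML KO BM.

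The ratio of the subunits was tested separately, since a ratio within a library does not depend on library size. There were 0.684, 0.531 and 0.623 S100a8 reads per S100a9 read in the AML WT mice, 0.667 and 0.539 in the AML HET mice and 0.553, 0.504 and 0.554 in the AML KO mice. The ranges overlapped. The log2 ratio differed by −0.18 between AML KO and AML WT mice (−0.90 ± 0.0786 against −0.72 ± 0.185, SD, n = 3 each), with p = 0.3 in an exact two-sided permutation test, where 3 mice against 3 cannot go below 0.1. The difference kept its sign without each mouse, from −0.28 to −0.10, and was −0.12 without both AML WT replicate 1 and AML KO replicate 1.

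Among the members that bind cytoskeletal or membrane proteins, S100a4, known for its role in cell motility, differed most. It was at 9.88, 37.9 and 28.6 CPM in AML WT, at 27.5 and 32.9 in AML HET and at 82.1, 39.2 and 56.1 in AML KO mice. AML KO and AML WT did not overlap, but AML KO replicate 2 was only just above AML WT replicate 2. The log2 fold change was 1.22 (SE 0.426, adjusted p = 0.217), DESeq2 alone called it (adjusted p = 0.0484), and it was 0.52 with AML WT replicate 1 and AML KO replicate 1 both left out.

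S100a6, or calcyclin, was at 242, 485 and 494 CPM in AML WT, at 462 and 498 in AML HET and at 821, 508 and 514 in AML KO mice. Apart from AML WT replicate 1 and AML KO replicate 1, all mice of the 3 groups lay between 462 and 514. The log2 fold change of 0.59 (SE 0.279, adjusted p = 0.299) accordingly became 0.06 (SE 0.12) without these 2 mice.

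S100a11 was at 187, 272 and 270 CPM in AML WT, at 253 and 308 in AML HET and at 426, 322 and 292 in AML KO mice, with a log2 fold change of 0.52 (SE 0.192, adjusted p = 0.232). S100a10, the annexin A2 partner, was at 206, 341 and 348 CPM in AML WT, at 279 and 347 in AML HET and at 417, 381 and 315 in AML KO mice. It was the only member in which AML KO and AML WT overlapped, with a log2 fold change of 0.31 (SE 0.208, adjusted p = 0.419). Without AML WT replicate 1 and AML KO replicate 1 the log2 fold changes were 0.18 for S100a11 and 0.01 for S100a10.

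The divergent neighbours S100a13, which takes part in the export of proteins without a signal peptide, and S100a1, best known from heart muscle, were among the less abundant members. S100a13 was at 34.4, 57.9 and 64.7 CPM in AML WT, at 64.5 and 73.8 in AML HET and at 119, 73.1 and 76.6 in AML KO mice (log2 fold change 0.77, SE 0.254, adjusted p = 0.192). S100a1 was at 23.9, 33.6 and 28.7 CPM in AML WT, at 28.5 and 32.0 in AML HET and at 39.3, 39.1 and 33.9 in AML KO mice (0.38, SE 0.152, adjusted p = 0.251). Neither passed the test, and without AML WT replicate 1 and AML KO replicate 1 their log2 fold changes were 0.29 and 0.23. In S100a1 the highest AML WT and the lowest AML KO mouse were 33.6 and 33.9 CPM, although the groups did not overlap. S100a16, with 35 to 92 reads per mouse, had means of 1.30 ± 0.388 (AML WT) and 2.65 ± 0.331 CPM (AML KO; SD, n = 3 for both) and did not pass either (log2 fold change 1.03, adjusted p = 0.161, and 0.69, adjusted p = 0.607, without the same 2 mice).

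Levels of different genes were set side by side only per kilobase of the principal transcript. In AML WT BM, S100a9 (1600 ± 1140 CPM per kb, SD, n = 3) and S100a8 (1027 ± 755) were highest, followed by S100a6 (557 ± 195), S100a11 (475 ± 95.0) and S100a10 (436 ± 117). S100a13 (73.2 ± 22.2), S100a4 (51.1 ± 28.7) and S100a1 (42.4 ± 7.18) were lower. Only the step from S100a10 to S100a13 was larger than the SDs of both neighbours, and all other neighbours in this order differed by less than the SD of at least 1 of them. AML HET and AML KO BM had the same order. In AML KO BM, S100a9 reached 8136 ± 2580 and S100a8 4681 ± 1600 CPM per kb, while S100a6 was at 841 ± 245. Per kilobase of all annotated exons, S100a6 (298 in AML WT) was below S100a11 (475), and the other positions did not change.

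In AML HET BM the mean of every member lay between those of AML WT and AML KO, with AML KO highest (8 of 8 members, 26.0% of all genes). A rise from AML WT to AML HET to AML KO without any overlap between mice was seen for 2 members, S100a8 and S100a9, and for 1.77% of all genes. On the log2 scale, AML HET was 1.11 above AML WT for both S100a8 and S100a9, and AML KO was a further 1.08 and 1.24 above AML HET. These differences were not called, and they depended on the mice that stood apart. Without AML WT replicate 1, AML HET was only 0.71 (SE 0.375) above AML WT for S100a8 and 0.69 (SE 0.327) for S100a9. Without AML KO replicate 1, AML KO was 0.77 (SE 0.615) and 0.96 (SE 0.64) above AML HET. With both of these mice left out, AML HET was below AML WT for S100a1 (log2 fold change −0.04), S100a4 (−0.14), S100a6 (−0.03) and S100a10 (−0.14), so the place of AML HET between the other groups did not hold for these 4 members. Between AML HET and AML WT, 0 members passed the test (0.0225% of all genes did), 0 had an unadjusted p under 0.05, and 2 were higher without overlap (9.53% of all genes). The median log2 fold change of the members was 0.24, against −0.01 over all genes. Between AML KO and AML HET, edgeR called 0 members and 0% of all genes, with 0 members and 780 genes at an unadjusted p under 0.05, while DESeq2 called 77 genes and limma-voom 0. There, 5 members were higher without overlap (13.2% of all genes), and the median of the members was 0.36, against 0.00 over all genes. All 3 comparisons draw on the same 8 mice, so they are not independent of each other.

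The level of short transcripts moved with the members. Each of the 8 members was lowest in AML WT replicate 1 and highest in AML KO replicate 1, which was the case for 25.2% and 28.7% of all genes. A trend of each library over transcript length and GC content was therefore removed in a fit that was added after the data had been seen. For AML KO against AML WT, the corrected log2 fold change was 2.21 (SE 0.397, adjusted p = 0.0215) for S100a9 and 2.04 (SE 0.37, adjusted p = 0.0224) for S100a8, so that 2 members and 338 genes were called. The other members kept 0.96 (S100a4), 0.46 (S100a13), 0.30 (S100a6), 0.24 (S100a11), 0.08 (S100a1) and 0.07 (S100a10), with adjusted p from 0.106 (S100a13) to 0.822 (S100a10). S100a8, S100a9, S100a4 and S100a13 still had no overlap between AML KO and AML WT, 4 of 8 instead of 7. After correction, 6 members were lowest in AML WT replicate 1 and 4 were highest in AML KO replicate 1. Shares of all genes are not at hand for the corrected values, so these counts cannot be read as a result about the members. What gave rise to the shift in short transcripts was not tested.

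**Figure D3:**
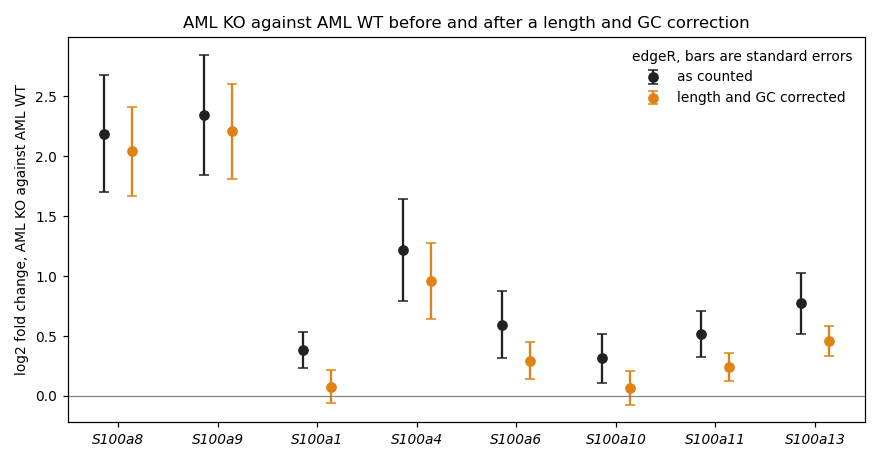
Log2 fold change in AML KO against AML WT (y axis, bars for the SE) of the 8 S100 genes, from the counts as deposited (black) and after removal of the trend over transcript length and GC content (orange). S100a8 and S100a9 stay above 2, whereas S100a1 and S100a10 drop to 0.08 and 0.07.

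Pairwise Pearson correlations of log2 CPM between the members over the 8 mice lay between 0.778 and 0.995. After the correction for length and GC content they lay between −0.159 and 0.994. The correlation of S100a8 with S100a9 was 0.995 before and 0.994 after it. Over the 6 mice other than AML WT replicate 1 and AML KO replicate 1, the pairs as counted lay between 0.0175 and 0.982, with S100a8 and S100a9 at 0.982. S100a13 and S100a8 were at 0.95 after correction, and S100a1 then had correlations of −0.16 to 0.06 with S100a8, S100a9, S100a4, S100a6 and S100a13. The 8 points fall into 3 genotypes, and as counted they share the shift in short transcripts, so these values are descriptions.

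**Figure D4:**
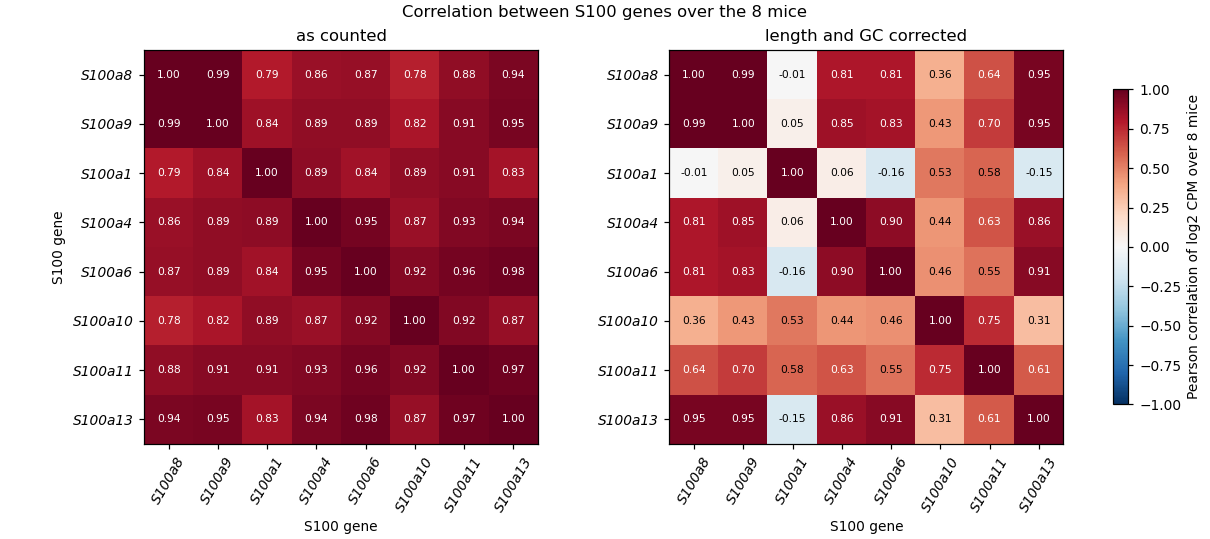
Pearson correlation of log2 CPM between the S100 genes over the 8 mice (color scale from −1 to 1), before (left) and after (right) the correction for transcript length and GC content. As counted all pairs are at 0.778 or higher, and after correction S100a1 is at −0.01 with S100a8 and 0.05 with S100a9.

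The genes with the pattern most like each member over the 8 mice were taken from 9132 genes with a mean of at least 10 CPM. For S100a8 these were Wfdc21 (Pearson r = 0.996), Ly6g (0.995) and Pgghg (0.991), and for S100a9 Ly6g (0.995), Camp (0.995) and Keap1 (0.994). Ly6g encodes the surface antigen of mouse neutrophils, Wfdc21 a secreted protein with a WAP domain and Camp the granule peptide cathelicidin. S100a6 was closest to Atp5l (0.996), Cox6c (0.993) and Uqcrq (0.992), small subunits of the mitochondrial respiratory complexes. The nearest genes of the other members were Tmem256, Smim5 and Med28 for S100a13, Sys1, Tonsl and Zfp524 for S100a11, Suds3, Gnl1 and Nfkbil1 for S100a4, Mrps21, Iah1 and Snx20 for S100a10 and Wbp1, Gpsm3 and Babam1 for S100a1, with r from 0.981 to 0.996. All these values use the counts as deposited, so they include the shift in short transcripts. For S100a6, all mice but AML WT replicate 1 and AML KO replicate 1 lay between 462 and 514 CPM. Whether the same genes are nearest without these 2 mice, or after correction, was not tested.

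Many genes of a list for mature neutrophils, which also holds genes of the secondary granules, moved with S100a8 and S100a9. Of 26 such genes in the table, 26 had a higher level in AML KO than in AML WT BM and 14 were called higher, with a median log2 fold change of 2.06. Without AML WT replicate 1 and AML KO replicate 1 this was 26 higher and 10 called, with a median of 1.41, and without AML KO replicate 1 alone 7 were called. Their summed level was 2377 to 4108 CPM in AML WT, 4409 to 5228 in AML HET and 8190 to 11400 in AML KO mice. The most abundant were Ngp (log2 fold change 2.25, SE 0.374, adjusted p = 0.0166), Ltf (2.14, SE 0.401, adjusted p = 0.027) and Camp (2.72, SE 0.476, adjusted p = 0.0208), proteins of the secondary granules. Mmp8 and Itgam, in contrast, had log2 fold changes of 0.00 and 0.04. In bulk BM, more cells of a type cannot be told apart from more RNA per cell.

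**Figure D5:**
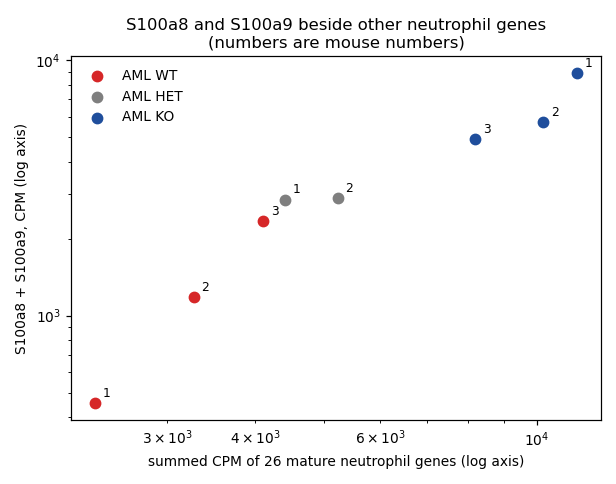
Summed CPM of S100a8 and S100a9 (y axis) against the summed CPM of 26 mature neutrophil genes (x axis), both on log axes, with 1 point per mouse and the mouse number beside it. The AML KO mice are highest on both axes, between 4902 and 8896 CPM of the pair.

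The 6 genes of primary granules, which mark the promyelocyte stage, had 0 called members, with a median log2 fold change of 0.35. Mpo had a log2 fold change of 0.41 (SE 0.132, adjusted p = 0.188). Monocytes also make calprotectin. Of 15 monocyte genes, 2 had a higher level in AML KO BM and 1, Lyz1, was called, with a log2 fold change of −1.48. The summed level of this list was 22950 to 23820 CPM in AML WT, 22300 to 22620 in AML HET and 16440 to 24520 in AML KO mice. Lyz2 and Psap were its most abundant genes, with means of 10470 and 6845 CPM in AML WT, so the sum mostly reflects these genes. Of 20 erythroid and 20 megakaryocyte and platelet genes, 18 and 15 were called higher (0 and 14 without AML WT replicate 1 and AML KO replicate 1, and 2 and 15 without AML WT replicate 1 alone), and 0 of 13 B cell, 16 T and NK cell and 14 stromal and endothelial genes were called. Of 14 macrophage genes, Cd5l, Slc40a1 and Vcam1 were called higher and Mrc1 lower, and of 6 osteoclast genes Acp5 and Ctsk lower. Without AML WT replicate 1 and AML KO replicate 1, Vcam1 (higher) and Mrc1 (lower) were called in the macrophage list, and 0 osteoclast genes. The part of these lists in the S100 levels was not tested.

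Partners and receptors of the S100 proteins were looked at as well. Of 28 such genes in the table, 13 had a higher level in AML KO than in AML WT BM, with a median log2 fold change of −0.07. Only 1 of the 28, Anxa1, was called, which is to be read against 2.09% of all genes. Anxa1, the S100a11 partner that dampens neutrophil recruitment, was at 252, 292 and 336 CPM in AML WT, at 353 and 364 in AML HET and at 526, 533 and 438 in AML KO mice. These groups did not overlap. Its log2 fold change was 0.77 (SE 0.14, adjusted p = 0.0244), it passed in 2 of the 8 fits without 1 mouse, with adjusted p from 0.0285 to 0.115 (without AML WT replicate 2), and it was 0.63 (adjusted p = 0.0722) without AML WT replicate 1 and AML KO replicate 1. Anxa2, which pairs with S100a10, had a log2 fold change of 0.11 (SE 0.151, adjusted p = 0.699).

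Of the calprotectin receptors, Tlr4 had means of 10.7 ± 3.64 (AML WT) and 7.55 ± 0.467 CPM (AML KO), with a log2 fold change of −0.50 (adjusted p = 0.305). Ager had means of 5.98 ± 2.78 and 9.49 ± 4.37 CPM (SD, n = 3 mice), with a log2 fold change of 0.67 (adjusted p = 0.407). Cd33, a myeloid surface lectin whose human form binds S100A9, had a log2 fold change of −0.66 (adjusted p = 0.147) and Bsg, another S100a9 receptor, of 0.29 (adjusted p = 0.289), with means of 252 ± 29.7 (AML WT) and 307 ± 31.2 CPM (AML KO; SD, n = 3 mice). Of the NADPH oxidase, to which calprotectin delivers arachidonic acid, Cybb had −0.42 (adjusted p = 0.374) and Cyba 0.42 (adjusted p = 0.281). Myh9, the heavy chain of the myosin that S100a4 binds, had −0.33 (adjusted p = 0.593), and Cacybp, the S100a6 partner, −0.14 (adjusted p = 0.592). A p above the threshold does not show that these genes were equal in both genotypes.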

How the data were processed

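Per the labels and the study's methods, RNA of freshly isolated whole BM was sequenced on an Illumina instrument, and the authors deposited raw read counts per gene, without normalization. The submitters' processing notes name Trimmomatic 0.36, STAR 2.5.2b and the build mm10. The counting tool, its annotation and its use of strand are not given in the sources used here. Of 13305 Ensembl identifiers, 13266 were found in GENCODE M21.

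The counts were fitted with edgeR 4.0.16 in R 4.3.3 (TMM, robust quasi-likelihood test) over all 8 mice, with genotype as the only term and Benjamini-Hochberg adjustment over all genes. filterByExpr removed 0 genes. The pipeline was tested on simulated counts, drawn separately for each gene and without the shift in short transcripts. There it called 94 of 100 genes raised 4-fold in AML KO, 58 of 100 raised 2-fold and 5 of 13105 unchanged genes. Log2 CPM used a prior count of 2. Alternatives used limma 3.58.1, DESeq2 1.42.0, other scaling and filters, a replicate block, only the groups compared and each mouse left out. The length and GC correction (loess, span 0.5, on the 13266 genes with a transcript) and the fit without AML WT replicate 1 and AML KO replicate 1 were added after seeing the data.

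Named genes were the members, S100a16, Gab2, S100 partners that were called or are discussed, the 3 genes nearest to each member and the most abundant genes of the marker lists. Mmp8, Itgam, Lyz1, Cd5l, Slc40a1, Vcam1, Mrc1, Acp5 and Ctsk were picked with their values in view. The members and lists were chosen with earlier results of these data known. Plots used matplotlib 3.10.9 and pandas 2.3.3 under Python 3.11.15.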

Additional observations from a re-analysis of the deposited data

How the results depend on the processing

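Of the 8 members, 1 (S100a9) was called between AML KO and AML WT. DESeq2 called 3 (S100a8, S100a9 and S100a4), with 730 genes in all, against 278. The length and GC correction and limma-voom each called 2 (S100a8 and S100a9), with 338 and 266 genes in all. The stricter filter, scaling without the 10 genes with the most counts, the fit of only the 2 groups compared, the length and GC correction with the replicate block, and the fit without both AML WT replicate 1 and AML KO replicate 1 each called 0. S100a9 then had an adjusted p of 0.0529, 0.0513, 0.0889, 0.0697 and 0.0619. In the same order, these fits called 234, 273, 216, 108 and 134 genes in all. Without single mice, 0 to 2 members and 40 (without AML WT replicate 2) to 370 genes (without AML KO replicate 2) were called, with 0 members without AML WT replicate 2, either AML HET mouse or any AML KO mouse. AML HET against AML WT and AML KO against AML HET gave 0 members in all fits. Between AML KO and AML WT, the fold change of no member, S100a16, Anxa1 or Gab2 changed sign in these fits. The replicate block left 0 members and 19 genes called (S100a9 log2 fold change 2.57, adjusted p = 0.165). The labels number the mice but do not say that equal numbers form pairs. Deviations of same-numbered AML WT and AML KO mice correlated at −0.509, −0.109 and −0.131. Those of AML WT and AML HET mice correlated at 0.0761 and 0.289, and those of AML KO and AML HET mice at −0.138 and −0.0397. The value of −0.509 is for the 2 mice with opposite shifts in short transcripts, so these values cannot decide whether mice were paired. Within the block, the log2 ratio of S100a8 to S100a9 differed by −0.183 (exact two-sided permutation test, p = 0.25). With 3 same-numbered pairs this p cannot go below 0.25, so it cannot show that the ratio was unchanged. The members had 402 or more reads in each mouse, so depth limited them less than the spread between mice.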

Other observations

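S100a8 and S100a9 were also set against other neutrophil transcripts of the same library, a comparison chosen after the data had been seen. Their summed CPM per summed CPM of the 26 mature neutrophil genes was 0.191, 0.362 and 0.572 in the AML WT mice, 0.645 and 0.553 in the AML HET mice and 0.78, 0.558 and 0.599 in the AML KO mice. AML WT replicate 3 lay within the range of AML KO, and the mean of the log2 value was higher by 0.91 in AML KO (−0.65 ± 0.255 against −1.55 ± 0.795, SD, n = 3 each; exact two-sided permutation test, p = 0.2, smallest possible 0.1). The difference was 0.49 without AML WT replicate 1, 0.76 without AML KO replicate 1 and 0.345 without both. All 26 listed genes were higher in AML KO, but some differed little, such as Mmp8 and Itgam (log2 fold changes 0.00 and 0.04). The ratio therefore depends on which genes are in the list. It also uses the counts as deposited, without the correction for transcript length and GC content. Per CPM of Ngp, the pair was at 1.97, 2.44 and 3 in AML WT, at 3.1 and 2.47 in AML HET and at 3.48, 2.14 and 2.54 in AML KO mice, with overlapping ranges.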
